A study of Homo sapiens with 30 samples.

Results

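The human replication-dependent histone genes were followed across pancreatic cancer cells in which 4 genes had been depleted. They were taken as every entry of the deposited expression table whose symbol begins with HIST1H, HIST2H, HIST3H or HIST4H, and 71 of the 24895 entries met this rule. By protein class, 6 encode linker histone H1, 17 encode H2A, 18 encode H2B, 15 encode H3 and 15 encode H4. By locus, 55 belong to HIST1 on chromosome 6, 12 to HIST2 and 3 to HIST3 on chromosome 1, and 1 to HIST4. In current nomenclature these genes have new names, so that HIST1H2BK is H2BC12 and HIST1H1C is H1-2. The older symbols of the table are kept here.

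Histones are the proteins around which DNA is wound. An H3 and H4 core and flanking H2A and H2B dimers make the nucleosome, and H1 binds the DNA between nucleosomes. Most histone protein is made during S phase from clustered genes without introns, whose messenger RNAs end in a conserved stem-loop in place of a poly(A) tail. The stem-loop is bound by SLBP, cleavage uses the U7 small nuclear ribonucleoprotein, and transcription of the clusters depends on the coactivator NPAT. Some of these genes can also be read through to a polyadenylation signal downstream, which gives tailed transcripts in cells that are not replicating DNA.

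The cells were MiaPaCa2 and PANC-1, both established from human pancreatic ductal adenocarcinoma. In either line the groups were a control small interfering RNA (siControl) and siRNAs against DDX60L, MYEOV, KCNN4 and S100A16, with 3 libraries in each of the 10 groups. The labels do not name the siRNA sequence behind each library, so the loss of a target cannot be told apart from other effects of its siRNA. All values are FPKM, the number of fragments relative to gene length and to the mapped total of a library. Levels set side by side between genes also depend on the length taken for each gene and on how shared reads were assigned. If RNA was selected by its poly(A) tail, they depend on the share of each RNA that carries one. The sources used here do not give these, so ranks between members describe FPKM only. Targets fell to between 4.95% (S100A16) and 36.5% (KCNN4) of siControl in MiaPaCa2 and to between 18.1% (S100A16) and 47.5% (KCNN4) in PANC-1. MYEOV itself stood at only 0.803 ± 0.16 FPKM (SD, n = 3) in MiaPaCa2 siControl cells and at 0.171 ± 0.018 FPKM after siMYEOV, below the level needed for a test. In PANC-1 it stood at 23.9 ± 0.97 and 9.94 ± 0.77 FPKM.

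FPKM summed to between 395879 and 416201 per MiaPaCa2 library and between 375091 and 407738 per PANC-1 library. The depth of single libraries could not be recovered from the values, so no counting interval is given. After scaling between libraries, low values were divided by the smallest value above 0 of the same gene. Only 19.2% of these ratios in MiaPaCa2 and 20.1% in PANC-1 lay within 0.05 of a whole number. That smallest value was not shown to stand for 1 read. The labels do not say whether the 3 libraries of a group were separate cultures. The study's methods give 3 replicates per sample for the transfected cells and describe its experiments as independent triplicates, without naming single libraries. Each p reflects only the spread between libraries within groups, pooled over all groups of a fit and moderated across genes. That spread may be technical. Of the markers checked, 3 of 6 epithelial markers in MiaPaCa2 and all 6 in PANC-1 reached a mean of 1 FPKM. No acinar marker did in either line (PRSS1 was at 0 in both), and no leukocyte or endothelial marker did in PANC-1. In MiaPaCa2, 1 of 4 leukocyte markers (LYZ) and 1 of 3 endothelial markers (CDH5) reached that mean, with PTPRC and CD3E at 0. These are bulk libraries, so fewer cells in S phase and less histone RNA per cell cannot be told apart in them. In separate assays by flow cytometry, the study reports no significant change of the cell cycle after siMYEOV or siDDX60L in either line. Its viability assay gave lower proliferation after siMYEOV in both lines and no effect of siDDX60L. The bearing of these assays on the histone values was not tested. The labels do not say whether RNA was selected by its poly(A) tail, while the study's methods name a kit for messenger RNA, so more histone RNA and a larger share of it carrying a tail cannot be told apart either.

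The sequence that defines these genes is the stem-loop, and it was found in all 62 members that could be placed on GRCh37 through the GENCODE annotation. The 16-base core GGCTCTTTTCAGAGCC occurred in 35 members, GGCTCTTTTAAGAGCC in 9, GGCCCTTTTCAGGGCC in 8 and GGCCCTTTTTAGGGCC in 4. A further 6 cores occurred once each. The stem-loops of the members on which the results turn follow with 7 bases on each side, read from GRCh37 in the direction of the gene, with the stem and loop in capitals.
HIST1H2BK (chr6:27114138-27114167, minus strand): ccccaaaGGCTCTTTTAAGAGCCacttaaa
HIST1H1C (chr6:26055965-26055994, minus strand): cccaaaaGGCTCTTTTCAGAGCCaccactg
HIST1H2BD (chr6:26158808-26158837, plus strand): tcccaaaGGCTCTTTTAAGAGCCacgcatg
HIST2H2BE (chr1:149857731-149857760, minus strand): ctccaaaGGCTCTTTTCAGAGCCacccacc
HIST2H2AC (chr1:149858934-149858963, plus strand): gaccaaaGGCTCTTTTTAGAGCCacccaag
The most abundant member, HIST1H2BK, carried the same core as HIST1H2BD. HIST2H2AC had a core that no other placed member shared, and so did HIST1H2AG, HIST1H2AK, HIST1H2BI, HIST1H3E and HIST1H4L. A link between the core and expression was not tested. In 17 of the 62 placed members an annotated transcript ran at least 100 bases past the stem-loop, among them HIST1H2BD, HIST1H2AC, HIST1H2BC, HIST1H2BJ, HIST2H2BE and HIST3H2A. HIST1H2BK and HIST1H1C had no such transcript in this annotation. The annotation puts HIST1H2BK (ENSG00000197903) at chr6:27114140-27114634 on the minus strand, HIST1H1C (ENSG00000187837) at chr6:26055968-26056698 on the minus strand and HIST1H2BD (ENSG00000158373) at chr6:26158350-26171577 on the plus strand. It puts HIST2H2BE (ENSG00000184678) at chr1:149856009-149858232 on the minus strand, HIST2H2AC (ENSG00000184260) at chr1:149858468-149858961 on the plus strand and HIST3H2A (ENSG00000181218) at chr1:228622478-228645574 on the minus strand. The stem-loops were searched for in the 150 bases that follow the stop codon. They began after 26 bases in HIST2H2AC, 27 in HIST1H1C, 36 in both HIST1H2BK and HIST1H2BD, and 56 in HIST2H2BE.

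Promoters of members that rose after siMYEOV are shown for a core histone, a linker histone and the H2B gene of a divergent H2A and H2B pair. They are from RefSeq on GRCh38.p14, which held promoters of 66 of the 71 members, and run from 250 bases before to 50 bases after the start of the gene. Capitals mark matches on either strand to 3 motifs long known from histone promoters. These are TATAAA of the TATA box, CCAAT of the box of that name, and ATTTGCAT, the octamer.
HIST1H2BK promoter (chr6:27146809-27147108, minus strand): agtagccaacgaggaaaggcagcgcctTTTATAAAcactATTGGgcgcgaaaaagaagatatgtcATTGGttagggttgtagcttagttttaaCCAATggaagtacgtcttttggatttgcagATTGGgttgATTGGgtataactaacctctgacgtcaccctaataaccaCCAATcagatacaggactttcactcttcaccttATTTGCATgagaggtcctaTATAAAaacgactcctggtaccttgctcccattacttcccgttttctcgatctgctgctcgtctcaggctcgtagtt
HIST1H1C promoter (chr6:26056421-26056720, minus strand): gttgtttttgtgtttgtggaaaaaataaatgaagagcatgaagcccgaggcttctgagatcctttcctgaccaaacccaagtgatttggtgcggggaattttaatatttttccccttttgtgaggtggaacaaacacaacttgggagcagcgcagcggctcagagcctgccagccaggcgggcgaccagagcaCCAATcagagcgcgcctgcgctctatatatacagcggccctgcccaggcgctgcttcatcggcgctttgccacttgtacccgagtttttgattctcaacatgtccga
HIST2H2BE promoter (chr1:149886633-149886932, minus strand): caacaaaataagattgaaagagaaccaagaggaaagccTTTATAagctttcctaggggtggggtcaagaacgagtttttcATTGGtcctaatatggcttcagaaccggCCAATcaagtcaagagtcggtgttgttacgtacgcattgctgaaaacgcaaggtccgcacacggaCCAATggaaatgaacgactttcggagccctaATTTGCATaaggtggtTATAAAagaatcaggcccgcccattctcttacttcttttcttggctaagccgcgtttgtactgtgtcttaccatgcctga
TATAAA was present in 44 of 66 member promoters (66.7%) and in 11.95% of all 27305 RefSeq promoters of that length. CCAAT was present in 84.8% of member promoters and 35.7% of all promoters, and all H1, H2A, H2B and H3 promoters held it against 3 of 13 for H4. The octamer was present in 39.4% of member promoters and 1.80% of all promoters. It was found in 14 of 18 H2B and 11 of 16 H2A promoters, and in 1 of 13 H3 promoters. The window of HIST2H2BE overlaps that of HIST2H2AC, which is read from the other strand. A match of letters is a description of the sequence and not a measured site.

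Most members had low FPKM. Over all 30 libraries the most abundant was HIST1H2BK, an H2B gene, at a mean of 56.9 FPKM, followed by HIST1H1C, an H1 gene, at 13.99 FPKM. The next was HIST2H2AA3, an H2A gene, at 7.13 FPKM. There were 29 members above 0 in every library and 6 at 0 in every library, the latter including HIST1H2AA and HIST1H2BA, which are known as testis histones. Only 27 members in MiaPaCa2 and 14 in PANC-1 reached the mean of 1 FPKM over a line's 15 libraries that was needed for a test, and all 14 were among the 27. The other 44 passed in neither line and are described through sums and counts over all 71. Summed over the 71 members, histone FPKM was 95.8 ± 3.6 in MiaPaCa2 siControl and 80.0 ± 4.2 in PANC-1 siControl cells (SD, n = 3).

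The lines differed in which members supplied that sum. A member was called when its limma adjusted p was below 0.05 and its log2 fold change, on the log2(FPKM + 1) scale, was at least 0.5 in size. In siControl cells 4 of 27 tested members were higher in PANC-1 and 14 were lower, while over all 13304 genes tested 30.9% were higher and 23.9% were lower. Members had a median log2 difference of −0.61, against 0.08 for all genes. All 27 had passed the filter in MiaPaCa2 and only 14 of them in PANC-1, so the selection favoured members low in PANC-1. The higher members were HIST1H2BK (1.19 ± 0.08, SE; adjusted p = 1.8e-12), HIST1H2BD (0.77 ± 0.11, adjusted p = 1.2e-06), HIST1H2AC (0.60) and HIST1H2BJ (0.52), so that 3 of the 4 were H2B genes. HIST1H2BK alone stood at 18.5, 19.2 and 17.2 FPKM in the MiaPaCa2 siControl libraries and at 42.0, 43.5 and 43.1 FPKM in PANC-1. The call for HIST1H2BJ was lost without PANC-1 siControl replicate 1 (0.24) or MiaPaCa2 siControl replicate 3 (0.497), and with only the groups compared (limma adjusted p = 0.084). That for HIST1H2AC was lost without PANC-1 siControl replicate 3 (0.39), without MiaPaCa2 siControl replicate 1 or 3 (limma adjusted p = 0.11 and 0.099), with no filter (0.064) and with the median of ratios (0.053).

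The largest difference with PANC-1 lower was that of HIST2H2AC, an H2A gene of the HIST2 locus. It stood at 6.38, 7.74 and 8.41 FPKM in MiaPaCa2 siControl libraries and at 0.136, 0.309 and 0.0958 FPKM in PANC-1 (log2 difference −2.85 ± 0.20, adjusted p = 5.4e-12). HIST1H2AJ followed (−2.26 ± 0.11, adjusted p = 9.4e-15), an H2A gene that was listed at 0 in 2 of the 3 PANC-1 siControl libraries. HIST1H3C, an H3 gene, was also nearly silent in PANC-1 (−1.75 ± 0.16, adjusted p = 3.6e-10). Many of the low members lay together. The HIST1 genes on chromosome 6 fall into blocks of 28, 5 and 16 placed members, separated by gaps of over 300000 bases, and in the last block 8 of 9 tested members were lower in PANC-1. All 9 had passed the filter in MiaPaCa2 only, which favoured a lower level in PANC-1, whereas the sums hold all members of a block. The sum over that block was 22.2 ± 3.2 FPKM in MiaPaCa2 and 2.57 ± 0.60 FPKM in PANC-1 siControl cells, whereas the middle block, which holds HIST1H2BK, summed to 21.0 ± 0.96 and 45.7 ± 0.31 FPKM. Of 13 tested members without an extended transcript 11 were lower in PANC-1, and of 10 with one, 1 was lower and 3 were higher. Most of the 13 had passed the filter in MiaPaCa2 only and most of the 10 in both lines, so this split follows the filter as well. Genes of S phase entry and DNA replication, a list of 25, were lower in PANC-1 in 20 cases, with POLA1, a DNA polymerase subunit, at −2.11. The part of that list in the histone difference was not tested.

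**Figure D1:**
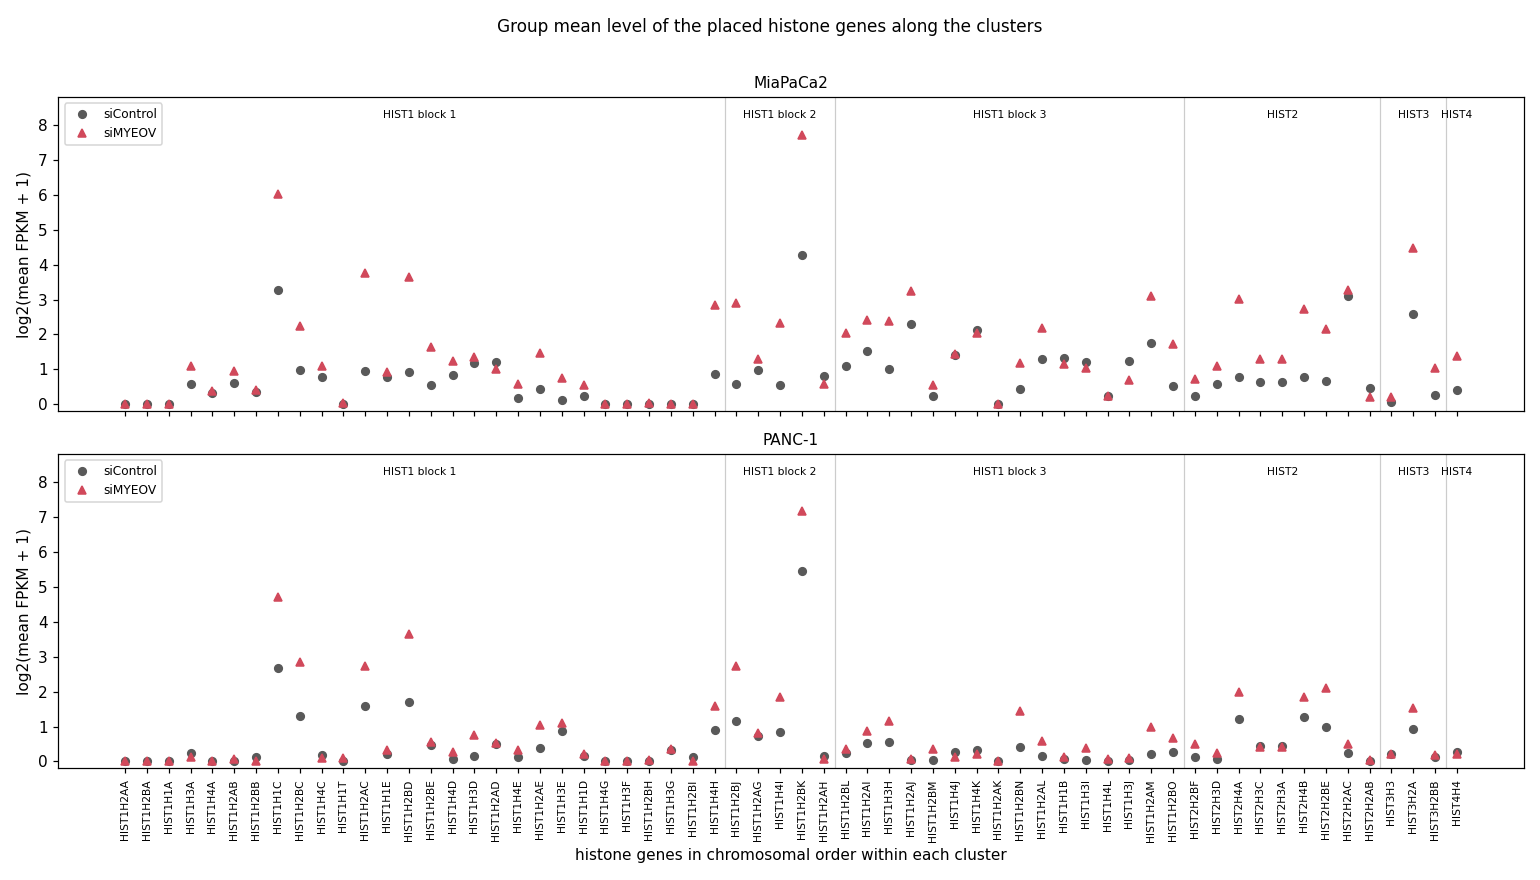
Mean FPKM of the placed histone genes in siControl and siMYEOV cells of MiaPaCa2 and PANC-1, as log2(mean FPKM + 1) on the vertical axis, with members in their order along chromosome and locus. The last HIST1 block, which summed to 22.2 FPKM in MiaPaCa2 siControl cells, summed to 2.57 FPKM in PANC-1.

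More histone genes were called after siMYEOV than after any other of the 4 siRNAs. In MiaPaCa2, 21 of 27 tested members rose, while 16.3% of all 11875 genes tested rose. In PANC-1, 12 of 14 rose, while 14.3% of all 12513 genes rose. By limma, 0 members fell in either line, and 0 had an unadjusted p under 0.05 for a fall, while 10.4% and 15.1% of all genes fell. The median log2 change of the tested members was 1.38 in MiaPaCa2 and 1.24 in PANC-1, against 0.11 and 0.04 over all genes. Both medians include members that passed the filter only through their siMYEOV libraries, and the MiaPaCa2 median is the value of such a member, HIST1H3H. All 12 members that rose in PANC-1 also rose in MiaPaCa2, where they made up 57.1% of the 21. Only 14 of those 21 were tested in PANC-1, the others being below the filter there. Among the 12, HIST2H2BE and HIST1H4I passed the filter in both lines only through their siMYEOV libraries. The overlap between lines over all genes was not computed. The terms that the study found enriched after siMYEOV are rich in histone genes, so these counts are not independent evidence of the direction.

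The filter favoured members that siMYEOV itself raised. In MiaPaCa2, 7 members passed only through their siMYEOV libraries (HIST2H2BE, HIST2H4A, HIST1H4H, HIST1H2BJ, HIST2H4B, HIST1H4I and HIST1H3H), and in PANC-1, 3 did (HIST2H2BE, HIST1H4H and HIST1H4I). With the filter set on the 12 other libraries of the line, 14 of 20 members rose in MiaPaCa2 and 10 of 11 in PANC-1, with 16% and 14% of all genes rising. With no filter, 33 of 62 members rose in MiaPaCa2 (9.41% of all genes) and 17 of 64 in PANC-1 (8.24%). Over all 71 members and without any test, all 3 siMYEOV libraries lay above all 3 siControl libraries for 41 members in MiaPaCa2 and 24 in PANC-1. Over the whole table that held for 23.1% and 20.8% of entries. The mean was higher after siMYEOV for 53 of 71 members in each line and lower for 9 and 10, the rest being equal at 0. The share of the whole table with a higher mean was not computed, so this last count stands without a comparison.

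Each protein class had a higher sum after siMYEOV. In MiaPaCa2 the H2B sum was 24.8 ± 1.8 FPKM in siControl and 246 ± 14 FPKM in siMYEOV cells (9.92-fold, SD, n = 3), and the H1 sum was 11.2 ± 0.60 and 66.3 ± 0.91 FPKM (5.94-fold). The ratio was 3.23 for H4, 3.06 for H2A and 1.87 for H3. In PANC-1 the order was H1 (4.46-fold, from 5.77 ± 0.99 to 25.8 ± 3.1 FPKM), H2B (3.45-fold), H2A (2.65-fold), H4 (2.05-fold) and H3 (1.74-fold). In each class and line all 3 siMYEOV libraries lay above all 3 siControl libraries. Among all single genes tested, that held for 39.8% in MiaPaCa2 and 34.9% in PANC-1. The sums are descriptions without a test, and the H2B sum is mostly HIST1H2BK and the H1 sum mostly HIST1H1C. Counts of single genes are given with the filter on the 12 other libraries of the line. In MiaPaCa2, 4 of 4 tested H2B, 8 of 9 H2A, 1 of 3 H3 and 1 of 2 H1 members rose, and neither of the 2 H4 members did. In PANC-1 these were 4 of 4 H2B, 4 of 4 H2A, 1 of 2 H4 and the single tested H1 member.

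**Figure D2:**
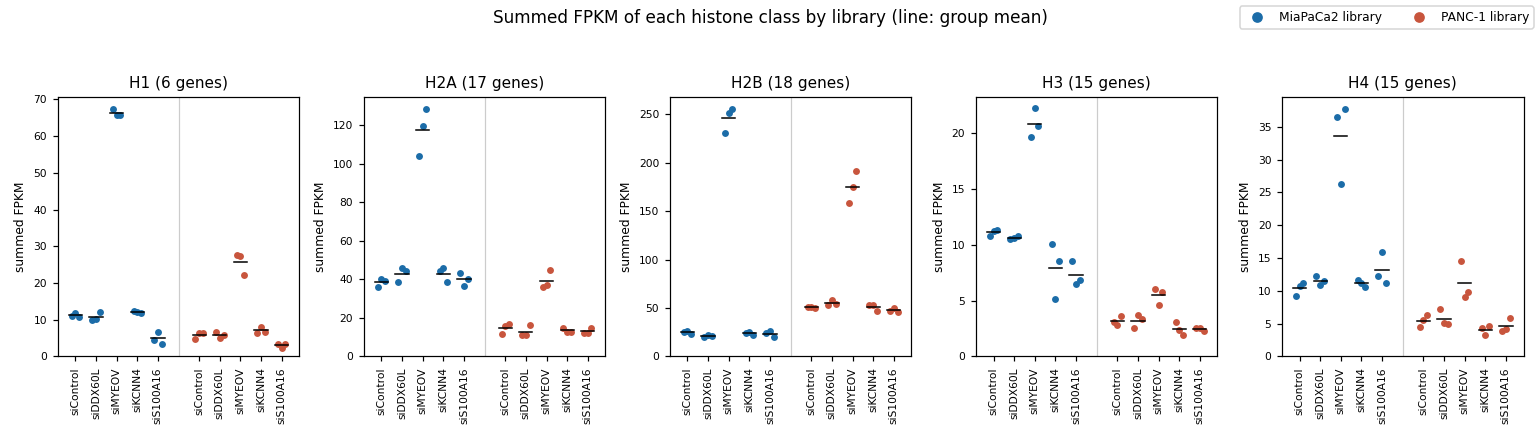
Summed FPKM of the members of each histone class in the 10 groups, with 1 point per library and the mean of each group as a line. In both lines the siMYEOV libraries lie above the siControl libraries in every class, most of all for H2B in MiaPaCa2 (24.8 to 246 FPKM).

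Among the H2B genes, HIST1H2BK stood at 18.5, 19.2 and 17.2 FPKM in the MiaPaCa2 siControl libraries and at 192, 216 and 217 FPKM after siMYEOV (a log2 change of 3.44 ± 0.09, SE, adjusted p = 1.1e-11). The PANC-1 libraries went from 42.0, 43.5 and 43.1 to 128, 144 and 158 FPKM (1.71 ± 0.07, adjusted p = 7.2e-10). The groups were far apart in both lines, and PANC-1, higher than MiaPaCa2 in siControl cells, was the lower line after siMYEOV. In the 9 libraries of the other siRNAs HIST1H2BK ranged from 11.2 to 17.6 FPKM in MiaPaCa2 and from 34.6 to 43.9 FPKM in PANC-1. HIST1H2BD started lower in MiaPaCa2, at 0.743, 0.927 and 1.07 FPKM, and reached 10.8, 12.7 and 11.3 FPKM (2.72 ± 0.11, adjusted p = 6.9e-10). In PANC-1 it went from 2.27, 2.30 and 2.19 to 11.8, 11.3 and 11.7 FPKM (1.95 ± 0.11, adjusted p = 1.2e-08). Both lines thus reached nearly the same HIST1H2BD level of 11.6 FPKM on average.

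HIST1H2BJ, another H2B gene of the middle block, went from 0.584, 0.445 and 0.435 to 5.98, 5.66 and 7.75 FPKM in MiaPaCa2 (2.32 ± 0.11, adjusted p = 4.2e-09). In PANC-1 it went from 2.17, 0.827 and 0.681 to 5.38, 5.43 and 6.16 FPKM (1.64 ± 0.21, adjusted p = 1.9e-05). The first PANC-1 siControl library was high, yet stayed below every siMYEOV library. HIST1H2BC went from 1.20, 0.852 and 0.907 to 4.42, 3.499 and 3.23 FPKM in MiaPaCa2 (1.25 ± 0.17, adjusted p = 3.6e-05). In PANC-1 it went from 1.43, 1.42 and 1.49 to 5.49, 6.05 and 6.99 FPKM (1.55 ± 0.20, adjusted p = 2.7e-05). HIST2H2BE, the H2B gene of the HIST2 locus whose promoter is shown above, rose by 1.49 ± 0.08 in MiaPaCa2 (adjusted p = 1.2e-08) and by 1.11 ± 0.11 in PANC-1 (adjusted p = 1.5e-06) on the log2 scale. HIST2H2BE in both lines and HIST1H2BJ in MiaPaCa2 passed the filter only through their siMYEOV libraries. That selection favoured a rise, so their p values there are no support for one.

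The linker histone gene HIST1H1C went from 8.28, 8.88 and 9.11 FPKM to 64.5, 63.7 and 63.0 FPKM in MiaPaCa2 (2.73 ± 0.15, adjusted p = 8.9e-09). In PANC-1 it went from 4.34, 5.77 and 6.20 to 27.0, 26.7 and 21.8 FPKM (2.03 ± 0.15, adjusted p = 1e-07). It was the largest PANC-1 change among the histone genes. The other H1 gene tested, HIST1H1B, did not pass, at 1.85, 1.89 and 0.749 FPKM in siControl and 1.13, 1.44 and 1.05 FPKM in siMYEOV libraries of MiaPaCa2, which overlap.

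Of the H2A genes, HIST1H2AC went from 0.753, 1.24 and 0.818 to 9.06, 8.63 and 20.0 FPKM in MiaPaCa2 (2.72 ± 0.27, adjusted p = 2.4e-06). The third siMYEOV library was the highest, and all were above siControl. In PANC-1 it went from 1.64, 1.42 and 2.91 to 5.46, 5.75 and 5.94 FPKM (1.20 ± 0.24, adjusted p = 0.00071). HIST2H2AA3 and HIST2H2AA4 are copies that encode the same protein, and their values moved as one. HIST2H2AA3 went from 5.67, 5.26 and 5.72 to 20.6, 23.6 and 24.0 FPKM in MiaPaCa2 (1.85 ± 0.09, adjusted p = 3e-09), and HIST2H2AA4 from 5.52, 5.11 and 5.55 to 20.5, 23.0 and 23.2 FPKM. In PANC-1, HIST2H2AA3 went from 3.80, 5.16 and 5.22 to 11.3, 12.6 and 16.4 FPKM (1.33 ± 0.17, adjusted p = 1.8e-05), and HIST2H2AA4 from 3.91, 5.35 and 5.11 to 10.9, 12.3 and 15.98 FPKM. No siMYEOV library of either line overlapped siControl for either copy.

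HIST3H2A, the H2A gene of the small HIST3 locus, went from 4.27, 5.65 and 4.93 to 21.5, 23.1 and 19.3 FPKM in MiaPaCa2 (1.91 ± 0.10, adjusted p = 8.9e-09). In PANC-1 it was scarce and went from 0.493, 1.09 and 1.10 to 2.13, 1.63 and 1.85 FPKM (0.61 ± 0.14, adjusted p = 0.0018). That call was lost without PANC-1 siControl replicate 1 (0.45). HIST1H2AJ went from 4.04, 4.12 and 3.63 to 7.46, 8.72 and 9.29 FPKM in MiaPaCa2 (0.94 ± 0.15, adjusted p = 0.00013). HIST1H2AM went from 2.60, 2.37 and 2.25 to 6.66, 8.801 and 7.29 FPKM (1.33 ± 0.19, adjusted p = 6.1e-05). Both belong to the last HIST1 block and were too low in PANC-1 to be tested there, with at most 0.0651 and 1.48 FPKM in any PANC-1 siMYEOV library. HIST2H2AC was the H2A gene that did not pass. It stood at 6.38, 7.74 and 8.41 FPKM in siControl and 6.67, 9.39 and 9.93 FPKM in siMYEOV libraries of MiaPaCa2, with overlapping groups (0.17 ± 0.20, adjusted p = 0.49).

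**Figure D3:**
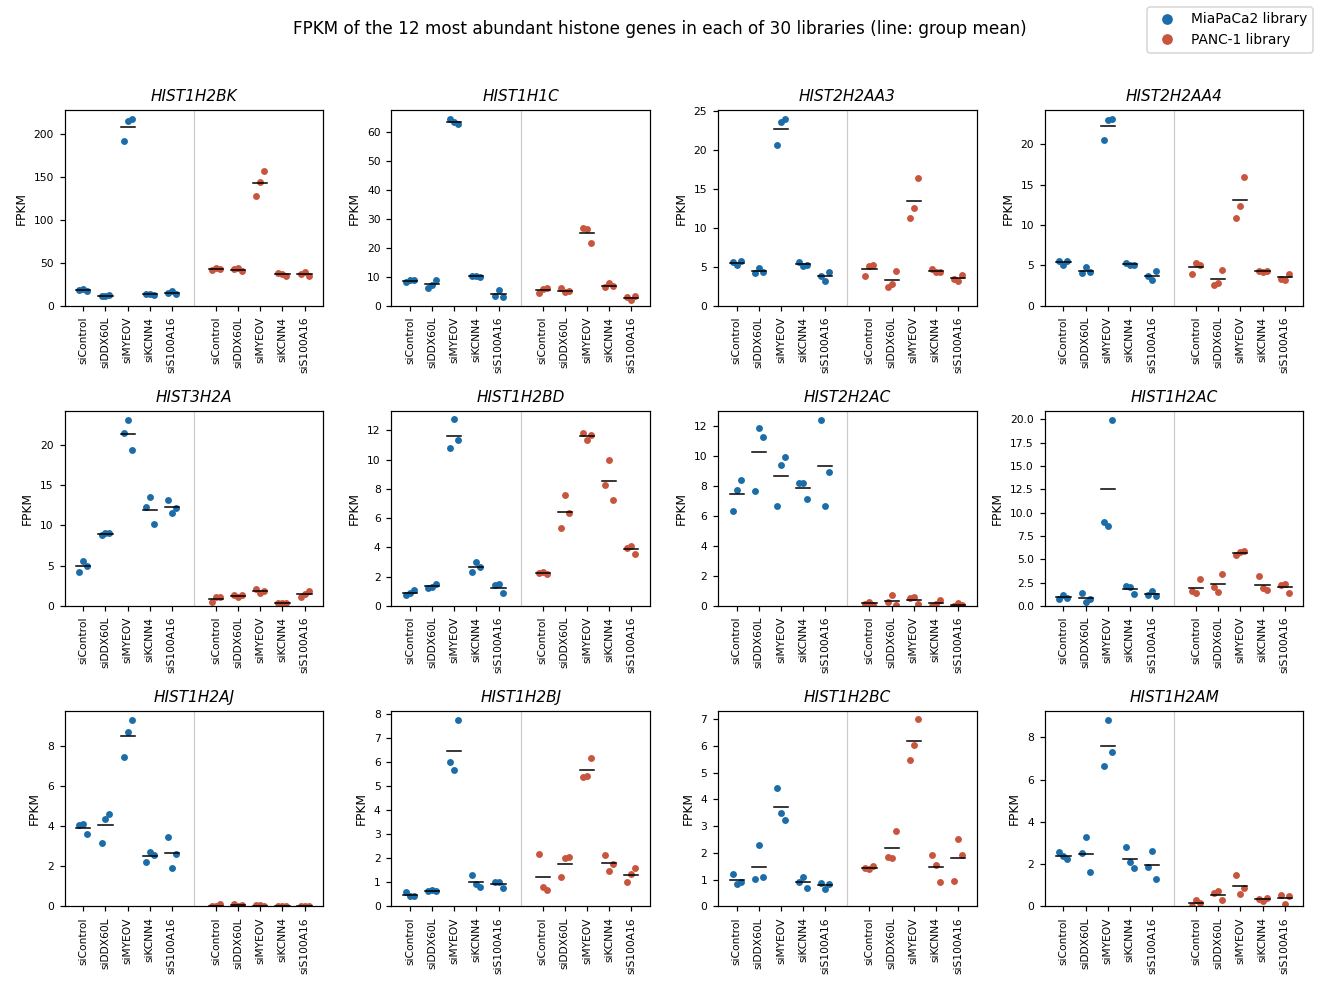
FPKM in every library for the 12 members with the highest mean over the 30 libraries, by line and siRNA, with the group mean as a line and an axis of FPKM for each gene. In MiaPaCa2 the siMYEOV libraries stand above siControl for every gene but HIST2H2AC, whose values overlap between 6.38 and 9.93 FPKM.

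H3 and H4 genes changed less evenly. HIST1H3C, an H3 gene, rose by 1.07 ± 0.18 (adjusted p = 0.00018) and HIST1H3H by 1.38 ± 0.10 (adjusted p = 1.2e-07) on the log2 scale in MiaPaCa2, whereas HIST1H3D (0.04) and HIST1H3B (−0.24) did not pass. No H3 gene was abundant enough for a test in PANC-1. Of the H4 genes, most of which encode one and the same protein, HIST2H4A (2.06 ± 0.42, adjusted p = 0.001) and HIST1H4H (2.04 ± 0.28, adjusted p = 4.4e-05) rose most in MiaPaCa2. All 4 H4 genes that rose there, and HIST1H3H, were among the members that passed the filter only through their siMYEOV libraries. HIST1H4J (−0.08) and HIST1H4K (−0.13) did not pass there, and HIST1H4H (0.71, adjusted p = 0.063) and HIST2H4A (0.59, adjusted p = 0.24) did not pass in PANC-1. HIST1H4I rose in both lines (1.78 ± 0.09 and 1.00 ± 0.09), and in each it passed the filter only through its siMYEOV libraries. HIST2H4B rose in PANC-1 by only 0.53 (adjusted p = 0.025), a call that was lost without any of 4 libraries, with 0.39 as the lowest value without PANC-1 siMYEOV replicate 1.

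Members rose at each locus that had tested members. With the filter on the 12 other libraries, 4 of 5 tested members rose in the first HIST1 block in MiaPaCa2, the single one in the middle block, 5 of 8 in the last block, 2 of 3 in HIST2 and the single one in HIST3. The sums over all members of a locus were 5.60-fold, 10.5-fold, 1.95-fold, 3.30-fold and 4.33-fold those of siControl in that order. In PANC-1, 4 of 4, 2 of 2, none tested, 3 of 4 and 1 of 1 rose, and the ratios of the sums were 3.67-fold, 3.34-fold, 2.81-fold, 2.59-fold and 1.89-fold. Members with an annotated extended transcript rose in 4 of 4 cases tested with that filter in MiaPaCa2 and those without in 7 of 12. In PANC-1 these were 6 of 7 and 2 of 2. No test was made of these splits, which were chosen with results known.

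**Figure D4:**
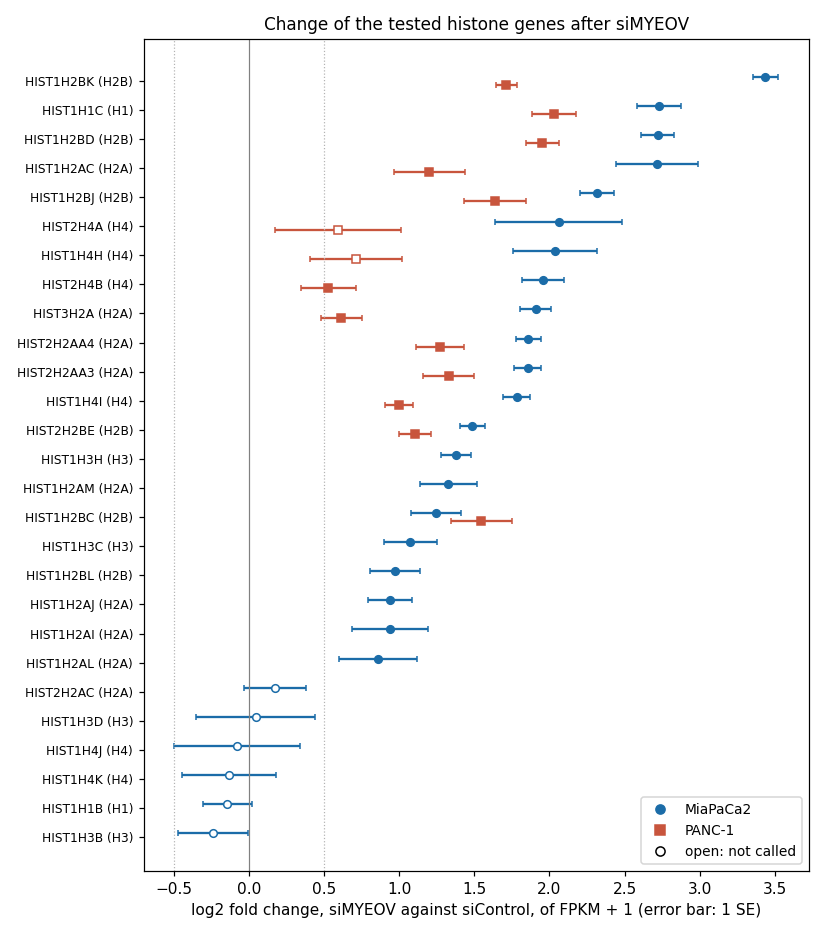
Log2 fold change (siMYEOV against siControl, on the log2(FPKM + 1) scale) of each tested member in MiaPaCa2 and PANC-1, with bars of 1 SE and filled symbols for called changes. The changes run from −0.24 (HIST1H3B) to 3.44 (HIST1H2BK) in MiaPaCa2, and those of the 14 members tested in PANC-1 from 0.53 to 2.03.

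Divergent pairs of an H2A and an H2B gene, whose starts lie 170 to 251 bases apart, share a promoter region, and 10 such pairs were placed. They did not always move together after siMYEOV. HIST1H2BK rose as above, while its partner HIST1H2AH stood at a mean of 0.761 FPKM in siControl and 0.510 FPKM in siMYEOV cells of MiaPaCa2, too low for a test. HIST2H2BE went from a mean of 0.580 to 3.45 FPKM in MiaPaCa2 while HIST2H2AC, at 7.51 and 8.66 FPKM, did not pass. HIST2H2BE has an annotated extended transcript and HIST2H2AC has none, and a link of this to their levels was not tested. In the pair of HIST1H2AC and HIST1H2BC both genes rose in both lines, and in the pair of HIST1H2AI (0.94) and HIST1H2BL (0.97) both rose in MiaPaCa2. HIST1H2BJ rose while HIST1H2AG went from 0.991 to 1.47 FPKM in MiaPaCa2 without being abundant enough for a test. In MiaPaCa2, HIST2H2BE and HIST1H2BJ had themselves passed the filter only through their siMYEOV libraries.

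Near-identical copies limit what can be said of single genes, because a read that fits several copies may be split or assigned to 1 of them, and the sources used here do not give how this was done. Of the 62 members with transcripts compared, 9 had over 50% of their 50-base windows in another member and 33 had none. HIST2H4A and HIST2H4B shared 100% of windows, HIST2H3A and HIST2H3C at least 99.2%, HIST1H4J and HIST1H4K 92.1% and 92.6%, and HIST1H2AI and HIST1H2AJ 63.5% and 66.3%. HIST1H2AM overlaps an annotated transcript of HIST1H3J on the same strand (67.8% of windows). Sums over copies do not depend on the split. HIST2H2AA3 and HIST2H2AA4 together went from 10.9 ± 0.50 to 45.0 ± 3.3 FPKM in MiaPaCa2 (4.11-fold) and from 9.51 ± 1.6 to 26.5 ± 5.3 FPKM in PANC-1 (2.79-fold), with 49.7 to 51.1% of the sum on HIST2H2AA3 in every group. HIST2H4A and HIST2H4B together went from 1.46 ± 0.82 to 12.8 ± 4.9 FPKM in MiaPaCa2 (8.76-fold) and from 2.77 ± 0.86 to 5.52 ± 3.2 FPKM in PANC-1 (2.00-fold), where the lowest siMYEOV library (3.56 FPKM) lay below the highest siControl library (3.63 FPKM). HIST1H4J and HIST1H4K together had sums of 5.08 ± 1.0 FPKM in siControl and 4.82 ± 1.0 FPKM in siMYEOV cells of MiaPaCa2, a difference smaller than the spread between libraries.

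The other siRNAs gave few called changes of histone genes. After siDDX60L in MiaPaCa2, 1 of 27 rose and 1 fell (8.77% and 7.28% of all genes), and in PANC-1, 1 of 14 rose (10.2% of all genes) while by limma 0 fell (7.34% of all genes, with 2 members lower at an unadjusted p under 0.05). After siKCNN4 in MiaPaCa2, 2 rose and 1 fell (16% and 7.23% of all genes), and in PANC-1, 1 rose (13.8%) and by limma 0 fell (12.9%, with 3 members lower at an unadjusted p under 0.05). After siS100A16, 1 rose and 2 fell in MiaPaCa2 (12.4% and 9.63% of all genes), and 1 rose and 2 fell in PANC-1 (16.5% and 8.94%). Most of these shares lay below those of all genes, and the median log2 change of the members stayed between −0.06 and 0.12. Some class sums, which were not tested, did not overlap siControl. The H3 sum was 65.4% (MiaPaCa2) and 78.3% (PANC-1) of siControl after siS100A16. In MiaPaCa2 it was 71.3% after siKCNN4 and 95.4% after siDDX60L. After siKCNN4 the H1 sum was 108% in MiaPaCa2 and 123% in PANC-1. After siDDX60L the H2B sum was 84.6% and 109%. The H1 sums after siS100A16 are given below. The H2A and H4 sums overlapped siControl.

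HIST1H2BD was the member that recurred in PANC-1, where it rose after every siRNA. It stood at 2.27, 2.30 and 2.19 FPKM in siControl libraries, at 8.28, 9.97 and 7.27 FPKM after siKCNN4 (1.54 ± 0.11, adjusted p = 1.2e-07), and at 5.31, 7.56 and 6.37 FPKM after siDDX60L (1.18 ± 0.11, adjusted p = 2.4e-06). After siS100A16 it stood at 3.96, 4.11 and 3.58 FPKM (0.58 ± 0.11, adjusted p = 0.00057), a change of 0.49 with libraries scaled by the median of ratios. No library of these groups overlapped siControl. In MiaPaCa2 it also rose after siKCNN4 (0.93 ± 0.11, adjusted p = 1.3e-05), to 2.33, 2.98 and 2.66 FPKM.

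HIST3H2A recurred in MiaPaCa2. From 4.27, 5.65 and 4.93 FPKM in siControl libraries it rose to 13.2, 11.5 and 12.2 FPKM after siS100A16 (1.16 ± 0.10, adjusted p = 9.9e-07). It rose to 12.2, 13.5 and 10.1 FPKM after siKCNN4 (1.12 ± 0.10, adjusted p = 1.5e-06) and to 8.77, 9.04 and 9.03 FPKM after siDDX60L (0.75 ± 0.10, adjusted p = 6.9e-05). All siRNA libraries lay above all siControl libraries. The comparisons of a line share their siControl libraries, so a low control level would move all of them together. In PANC-1, HIST3H2A passed after siMYEOV and not after the other siRNAs, where it ranged from 0.396 to 1.83 FPKM.

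The H1 gene HIST1H1C fell after siS100A16 in both lines, opposite to its rise after siMYEOV. In MiaPaCa2 it stood at 3.29, 5.49 and 3.08 FPKM (−1.01 ± 0.15, adjusted p = 8.2e-05), and in PANC-1 at 3.22, 2.12 and 3.26 FPKM (−0.74 ± 0.15, adjusted p = 0.00082), below every siControl library. HIST1H1B fell as well in MiaPaCa2, to 0.525, 0.533 and 0.357 FPKM (−0.73 ± 0.16, adjusted p = 0.0023). The H1 sum was 43.96% of siControl in MiaPaCa2 and 52.2% in PANC-1 after siS100A16. HIST1H2BK fell after siDDX60L in MiaPaCa2, to 11.2, 11.5 and 12.3 FPKM (−0.61 ± 0.09, adjusted p = 8.4e-05), and HIST1H2AI fell after siKCNN4 there (−0.87 ± 0.26, adjusted p = 0.012). The latter call was lost without siControl replicate 2 (−0.68) or siKCNN4 replicate 1 (−0.66). HIST2H4B fell after siS100A16 in PANC-1 (−0.50, adjusted p = 0.033), and lost that call when any 1 of the 6 libraries compared was left out.

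**Figure D5:**
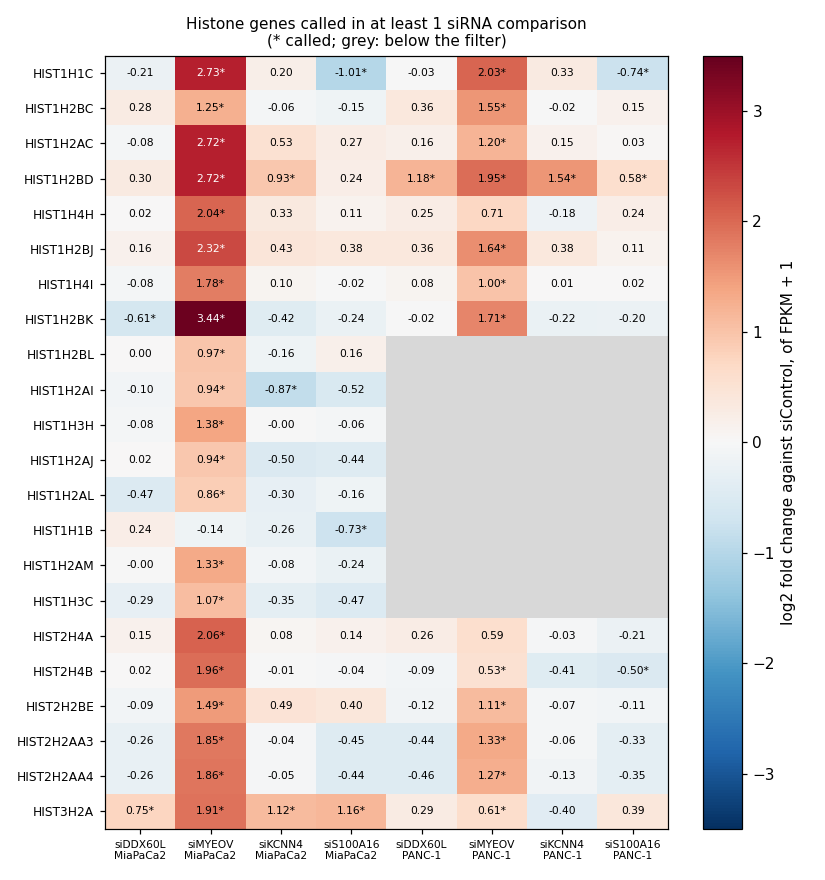
Colours give the log2 fold change against siControl, on the log2(FPKM + 1) scale, of each member called in at least 1 comparison (rows) for the 4 siRNAs in both lines (columns), with an asterisk on called changes and grey below the filter. The siMYEOV columns hold 21 and 12 called rises, and the other columns hold between 1 and 3 called changes each.

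The size of the siMYEOV response differed between the lines. The PANC-1 log2 change minus the MiaPaCa2 change was called for 15 of 27 members, with 18.1% of all genes called in either direction, and all 15 were negative, the change in PANC-1 being the lower. The largest differences were those of HIST1H2BK (−1.72 ± 0.11, adjusted p = 4.5e-11) and HIST1H2AC (−1.52 ± 0.38, adjusted p = 0.0027). All 27 had passed the filter in MiaPaCa2, some only through their siMYEOV libraries, and just 14 had passed in PANC-1. A member near 0 in PANC-1 can hardly rise on this scale, so the selection favoured a negative difference. Some of the 15, such as HIST1H2AJ and HIST1H3C, were hardly expressed in PANC-1, and with a pseudocount of 0.1 the count was 9. After siDDX60L, 2 members differed (11.4% of all genes), HIST1H2BD (0.88 ± 0.16, adjusted p = 0.0002) and HIST1H2BK (0.58 ± 0.11, adjusted p = 0.0004), both higher in PANC-1 relative to MiaPaCa2. After siKCNN4, 3 differed (17.7% of all genes), led by HIST3H2A (−1.52 ± 0.17, adjusted p = 3.4e-07) and HIST1H2BD (0.60 ± 0.16, adjusted p = 0.0042). The latter call was lost with a pseudocount of 0.1 (0.41) and without PANC-1 siKCNN4 replicate 2 (0.496). After siS100A16, 3 differed (13.8% of all genes), led by HIST3H2A (−0.77 ± 0.17, adjusted p = 0.0015) and HIST1H1B (0.70 ± 0.18, adjusted p = 0.0052), both lost with a pseudocount of 0.1 (adjusted p = 0.12 and 0.10).

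The genes that act on histone messenger RNA did not follow the histone genes as a group. Of 25 genes of histone pre-mRNA processing and transcription, 4 rose and 2 fell after siMYEOV in MiaPaCa2, and 3 rose and 1 fell in PANC-1. The shares that rose, 16% and 12%, lay near the 16.3% and 14.3% of all genes. The counts of this and the following lists stand against the shares of all genes called in the same comparison, given above. ZNF473, a zinc finger protein of the U7 complex, rose in both lines (0.73 ± 0.14, adjusted p = 0.00057, and 0.70 ± 0.11, adjusted p = 0.00016). SNRPD3, an Sm protein of the same particle, fell in both (−1.14 ± 0.11 and −0.62 ± 0.10). SLBP stood at 45.9 ± 2.7 and 37.7 ± 6.5 FPKM in MiaPaCa2 and at 36.8 ± 1.6 and 29.3 ± 2.3 FPKM in PANC-1, and NPAT at 7.45 and 6.91 FPKM in MiaPaCa2, none of them called. After the other siRNAs, 3 of the list rose after siDDX60L in MiaPaCa2 and 4 in PANC-1, led by LSM1 (0.66) and CPSF3 (0.76). After siS100A16, 2 rose in MiaPaCa2 (LSM1, 0.74), and 2 rose (ZNF473, 0.67) and 1 fell (SNRPE, −0.59) in PANC-1. After siKCNN4 in PANC-1, 1 rose (CPSF3, 0.51) and 2 fell, led by SLBP (−0.65 ± 0.09, adjusted p = 3.7e-05), and in MiaPaCa2 no gene was called. At baseline 2 were higher in PANC-1 (HINFP, 0.88) and 11 lower (NCBP1, −1.15).

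Genes of S phase entry and DNA replication did not rise with the histone genes after siMYEOV. Of 25, 6 fell and 1 rose in MiaPaCa2, and 8 fell in PANC-1, with medians of −0.13 and −0.35. CDKN1A, an inhibitor of cyclin-dependent kinases, fell most in both lines (−2.25 ± 0.12 and −1.16 ± 0.28), and CDC25A, a phosphatase that activates them, rose in MiaPaCa2 (0.68). After siDDX60L, 4 rose and 5 fell in MiaPaCa2 (E2F1, 0.87, and CDKN1A, −2.26), and 9 rose and 3 fell in PANC-1 (E2F1, 1.40, and TYMS, −1.94). After siKCNN4, 5 rose and 4 fell in MiaPaCa2 (E2F1, 0.89, and CDKN1A, −0.86), and 5 rose and 5 fell in PANC-1 (RRM2, 1.02, and CCNA2, −1.23). After siS100A16, 1 rose and 5 fell in MiaPaCa2 (CDC25A, 0.80, and CDKN1A, −1.43), and 5 rose and 3 fell in PANC-1 (CDC25A, 1.42, and CDKN1A, −0.84).

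Histone genes outside the clusters showed no common rise. Of the list of replication-independent and variant histones, 2 of 11 rose and 1 fell after siMYEOV in MiaPaCa2, and 1 of 10 rose and 1 fell in PANC-1. H2AFZ, the variant found at promoters, fell in MiaPaCa2 from 245 ± 11 to 110 ± 8.8 FPKM (−1.15 ± 0.10), while H2AFY2, a macroH2A gene, rose (0.78 ± 0.05). In PANC-1 the macroH2A gene H2AFY rose (0.61) and the linker histone gene H1FX fell (−0.69). The other linker variant H1F0 stood at 63.7 and 64.2 FPKM in MiaPaCa2 and was not called in either line. After siDDX60L, 2 rose and 1 fell in MiaPaCa2 (H2AFY2, 1.26, and H3F3B, −0.73) and 2 rose in PANC-1 (H2AFZ, 0.70). After siKCNN4, 2 rose and 1 fell in MiaPaCa2 (H2AFJ, 1.17, and H2AFX, −0.59), and 1 rose and 3 fell in PANC-1 (H1F0, 0.86, and H2AFX, −1.42). After siS100A16, 1 rose and 4 fell in MiaPaCa2 (CENPA, 0.77, and H1FX, −1.27) and 2 fell in PANC-1 (H2AFX, −0.74). At baseline 5 of 11 were lower in PANC-1, led by H2AFY2 (−2.77).

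Of 20 histone chaperones and assembly factors, 2 rose and 3 fell after siMYEOV in MiaPaCa2 (CABIN1, 0.81, and the FACT subunit SSRP1, −0.62), and 1 rose and 1 fell in PANC-1 (UBN1, 0.72, and ASF1B, −0.54). The shares that rose, 10% and 5%, lay below those of all genes (16.3% and 14.3%). NASP, which carries H1 and the H3 and H4 dimer, rose after siDDX60L in both lines (0.83 and 0.78), where 2 rose and 3 fell in MiaPaCa2 and 5 rose and 1 fell in PANC-1. IPO4, an importin for histones, fell in both of those comparisons (−0.63 and −0.95). After siKCNN4, 2 rose and 2 fell in MiaPaCa2 (CABIN1, 0.70, and IPO4, −0.63), and 3 rose and 1 fell in PANC-1 (NASP, 0.84, and IPO4, −0.65). After siS100A16, 1 fell in MiaPaCa2 (ASF1B, −0.68) and 3 rose in PANC-1 (TONSL, 0.63). At baseline 2 were higher (NAP1L1, 0.65) and 10 lower (IPO4, −1.81) in PANC-1.

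Genes that lie among the HIST1 genes on chromosome 6 without encoding histones were followed as neighbours, and 13 of 20 were tested. After siMYEOV, 2 rose and 1 fell in MiaPaCa2, and 1 rose and 3 fell in PANC-1. The zinc finger gene ZNF322 rose in both lines (0.80 ± 0.07 and 0.89 ± 0.10), HMGN4, which encodes a nucleosome-binding protein, fell in MiaPaCa2 (−1.10 ± 0.05), and the butyrophilin gene BTN3A1 fell in PANC-1 (−0.92 ± 0.09). After siKCNN4, 7 rose in MiaPaCa2 (BTN3A2, 1.00), and 1 rose (ZNF322, 0.78) and 1 fell (BTN2A2, −0.58) in PANC-1. After siDDX60L, 2 rose in each line (ZNF322, 0.64, in MiaPaCa2 and ZNF184, 0.54, in PANC-1), and after siS100A16, 2 rose in PANC-1 (HFE, 0.70). At baseline 5 were higher (BTN3A1, 1.41) and 1 lower (HFE, −0.80) in PANC-1.

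Cell type markers moved beside these results. The summed epithelial markers ranged from 579 to 2171 FPKM in MiaPaCa2 and from 1008 to 3389 FPKM in PANC-1. After siMYEOV, 2 of 3 tested epithelial markers fell in MiaPaCa2 and 4 of 6 in PANC-1, led by KRT18 (−3.99 and −3.44), a keratin of simple epithelia. Between 1 and 4 epithelial markers also fell after each other siRNA in the lines, where few histone genes were called, while EPCAM, an adhesion molecule, rose after siS100A16 in PANC-1 (1.85 ± 0.12, adjusted p = 4e-08). Their part in the histone rise was not tested. The fibroblast markers summed to 14.4 to 69.0 FPKM in MiaPaCa2, nearly all COL1A2, which fell after each siRNA there (−0.70 after siMYEOV and −2.09 after siS100A16), and to 5.49 to 11.4 FPKM in PANC-1. The leukocyte markers summed to at most 5.87 FPKM, from LYZ, which fell after siMYEOV (−0.61) and siDDX60L (−0.60) and rose after siKCNN4 (1.42) in MiaPaCa2. The endothelial markers summed to at most 3.40 FPKM, from CDH5, which fell after siDDX60L (−0.93) and siKCNN4 (−0.77) there, and the acinar markers to at most 0.528 FPKM.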

How the data were processed

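RNA of 30 libraries (2 lines, 5 groups of a line, 3 libraries per group) was sequenced, and the authors deposited 1 table of FPKM per gene, made with TopHat2 2.0.12 on GRCh37 by the submitters' notes. The study's methods name an Ensembl annotation of that build. The program behind FPKM and its handling of strand and of reads that fit several copies were not given in the sources used here. In addition, the labels and the study's methods name different RNA and library kits. FPKM depends on gene length and on the other RNAs of a library, and keeps no read depth.

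A pseudocount of 1 was added and log2 values were fitted with limma 3.58.1 (R 4.3.3, empirical Bayes with a trend) over the 15 libraries of a line, for genes whose mean there was 1 FPKM or more. The comparison of lines and the difference of their responses used all 30 libraries and genes reaching 1 FPKM in either line. The p values are two-sided and were adjusted by Benjamini-Hochberg over all genes tested. The comparisons of a line share their siControl libraries. Simulated data were used to test the scripts. Sums, counts and figures were made with Python 3.11.15, pandas 2.3.3 and matplotlib 3.10.9.

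Values in every library were given for the 12 members with the highest mean. Further named members were, per siRNA and line, the called members with the 4 largest rises and 4 largest falls, 3 each way between lines, 2 line differences per siRNA, and per gene list the called gene with the largest rise and fall. Others were named after their values were seen. The members and gene lists (histone pre-mRNA processing, variant histones, chaperones, S phase, neighbours, cell type markers) were chosen with earlier results of these data known. Alternatives were a pseudocount of 0.1, no filter, scaling by the median of ratios, only the groups compared, a replicate block, leaving out each library, and a filter on the 12 libraries outside the siRNA group, the last chosen after seeing the data.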

Additional observations from a re-analysis of the deposited data

Results flagged for a closer look

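The change after an siRNA differed between PANC-1 and MiaPaCa2 for 23 pairs of member and siRNA, by limma's test of the difference itself over all 30 libraries. Values are the log2 change in PANC-1 minus that in MiaPaCa2.

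After siMYEOV the difference was −1.72 for HIST1H2BK, −1.52 for HIST1H2AC, −1.43 for HIST2H4B and −1.32 for HIST1H4H. It was −1.30 for HIST3H2A, −0.93 for HIST1H2AJ, −0.90 for HIST1H3C and −0.85 for HIST1H2BL. HIST1H3H and HIST1H4I both had −0.78. The remaining values were −0.77 for HIST1H2BD, −0.70 for HIST1H1C, −0.68 for HIST1H2BJ, −0.59 for HIST2H2AA4 and −0.53 for HIST2H2AA3. HIST1H2AJ, HIST1H3C, HIST1H2BL and HIST1H3H did not reach the filter in PANC-1, and were tested through MiaPaCa2 alone, which favoured a negative difference. The call of HIST2H2AA3 was lost with a pseudocount of 0.1, with no filter, with the median of ratios, with only the groups compared and in 9 leave-outs (limma adjusted p = 0.051 to 0.11). That of HIST1H2BJ was lost with no filter, with only the groups compared and in 6 leave-outs, the lowest value being −0.39 without PANC-1 siControl replicate 1. That of HIST2H2AA4 was lost without PANC-1 siMYEOV replicate 1 (−0.47), and that of HIST1H4H without MiaPaCa2 siControl replicate 1 (−1.16) or PANC-1 siControl replicate 2 (−1.10). A pseudocount of 0.1 also removed the calls of HIST1H4H, HIST1H2AJ, HIST1H3C, HIST1H2BL, HIST1H1C and HIST1H3H.

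After siDDX60L the difference was 0.88 for HIST1H2BD and 0.58 for HIST1H2BK. After siKCNN4 it was −1.52 for HIST3H2A, 0.60 for HIST1H2BD and −0.56 for HIST2H2BE. After siS100A16 it was −0.77 for HIST3H2A, 0.70 for HIST1H1B and −0.51 for HIST2H2BE. The calls of HIST2H2BE were lost without PANC-1 siControl replicate 1, at −0.50 for siKCNN4 and −0.44 for siS100A16. The former was also lost without PANC-1 siKCNN4 replicate 2 (−0.49), and the latter without MiaPaCa2 siS100A16 replicate 3 or PANC-1 siS100A16 replicate 1 or 3 (−0.50 to −0.47). HIST1H2BD after siKCNN4 lost its call with a pseudocount of 0.1 (0.41) and without PANC-1 siKCNN4 replicate 2 (0.496). HIST3H2A and HIST1H1B after siS100A16 lost theirs with a pseudocount of 0.1 (−0.60 and 1.18).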

How the results depend on the processing

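The rise of histone genes after siMYEOV kept its direction under every alternative, and no named change reversed. With a pseudocount of 0.1 in MiaPaCa2, 2 members were higher after siDDX60L, 4 higher and 2 lower after siKCNN4, and 3 higher and 6 lower after siS100A16. In PANC-1, 2 were lower after siDDX60L, 2 lower after siKCNN4 and 2 higher after siS100A16. That pseudocount gave 7 members higher in PANC-1 siControl cells, 9 line differences after siMYEOV (8 of them among the 15) and 1 after siS100A16. Without a filter in MiaPaCa2, 4 were higher after siDDX60L, 33 higher after siMYEOV, 2 lower after siKCNN4 and 5 lower after siS100A16. In PANC-1, 2 were higher and 1 lower after siS100A16, 22 were lower than in MiaPaCa2, and 5 line differences were called after siS100A16. Scaling by the median of ratios moved the median of all genes by −0.13 for siKCNN4 in MiaPaCa2 and −0.11 for siS100A16 in PANC-1. It gave 3 members lower after siKCNN4 in MiaPaCa2, 2 lower after siDDX60L in PANC-1 and 0 higher after siS100A16 in PANC-1, where HIST1H2BD was at 0.49. The cause of these moves was not tested.

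Leaving out 1 library at a time gave 19 to 21 members higher after siMYEOV in MiaPaCa2 and 10 to 12 in PANC-1. Members higher after siDDX60L numbered 1 to 2 in either line, and members lower after siDDX60L in PANC-1 numbered 0 to 2. After siKCNN4, 0 to 2 were lower in MiaPaCa2, 1 to 2 higher and 0 to 1 lower in PANC-1. After siS100A16, 2 to 5 were lower in MiaPaCa2, 1 to 2 higher in PANC-1 and 1 lower in PANC-1 in each leave-out. Line differences numbered 13 to 15 after siMYEOV and 1 to 4 after siKCNN4. Of the tests of single members, 611 kept their call and 46 lost it.

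Same-numbered libraries correlated at −0.055 to 0.16 in their deviations, with 1 of 24 pairs over 0.1. Deviations from means of 3 libraries cannot show whether a shared number marks a shared culture or batch. With a replicate block 21 and 12 members were higher after siMYEOV, and the block changed 2 calls of single members. It removed the line difference of HIST1H2BJ after siMYEOV (adjusted p = 0.051 by limma) and added that of HIST1H3C after siDDX60L (0.58, adjusted p = 0.032 by limma). FPKM keeps no depth, so what depth limits could not be set.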
